A study of Mus musculus with 11 samples.

Results

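The 10 genes described here mark and run the blood stem cell niche of bone marrow stroma: Cxcl12, Kitl, Angpt1, Il7 and Vcam1 act on blood cells, Lepr, Pdgfra and Pdgfrb are receptors of the stromal cell, and Ly6a and Thy1 are surface markers. They were chosen by gene name and by no threshold on a measured value, but with earlier results of these data known. All 10 were present in both deposited tables, among 19259 genes in the table of the ANXA2 knockout and 19801 in that of the ANXA5 knockout. RNA was sequenced in bulk from untreated primary mesenchymal stromal cells of C57/BL6 mouse bone marrow. Of 11 libraries, 4 came from wild type animals, 3 from mice with a knockout of ANXA2 and 4 from mice with a knockout of ANXA5, the genes of annexin A2 and annexin A5, proteins that bind membrane phospholipids when calcium is present. The labels give no age or sex, do not say how a knockout was made, whether it reached every cell of the body, or whether each library was a separate animal or culture. The p-values below therefore measure the spread between libraries, which may be technical.

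Mesenchymal stromal cells around marrow sinusoids and arterioles support blood stem cells. They secrete the chemokine CXCL12, which holds cells bearing its receptor CXCR4 in the marrow, and present stem cell factor, the product of Kitl, to the receptor KIT. The leptin receptor and both platelet-derived growth factor receptors are standard labels of these cells in mice, and angiopoietin 1, interleukin 7 and the adhesion protein VCAM1 complete a core set of niche products.

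Counted reads per library ran from 23.3 to 35.7, in units of 1e6 reads. Normalised reads, the unit of the values below, are read counts divided by the library's DESeq2 size factor. Anxa2 stood at 8542 ± 1691 normalised reads (SD, n = 3) in the ANXA2 knockout and 29822 ± 1354 (n = 4) in wild type, so that 28.6% of the transcript level remained, while Anxa5 in its knockout stood at 9.24% of wild type. Xist, the transcript of the inactive X chromosome, lay near 1 normalised read in wild type libraries 3 and 4 and at 1829 and 1997 in libraries 1 and 2. In the ANXA2 knockout it lay between 203 and 652, and in the ANXA5 knockout at 783, 2.07, 1676 and 528. The level thus differed widely among libraries of the same genotype, and the labels give no sex. Of the markers of the labelled cell type, 20 stromal surface genes held 0.468 to 0.568% of reads in wild type, 0.448 to 0.551% in the ANXA2 knockout and 0.454 to 0.469% in the ANXA5 knockout. Ptprc, the blood cell marker CD45 that stromal cells lack, stood at 3907 to 4437 normalised reads in wild type. Markers of other marrow cells, 58 genes in all with Ptprc among them, held 1.62 to 2.63% of reads in wild type, 1.29 to 3.23% in the ANXA2 knockout and 2.34 to 3.11% in the ANXA5 knockout. In bulk RNA, fewer cells of a type and less RNA per cell cannot be told apart.

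All 10 genes were expressed in every library, at levels that spanned a wide range. Per kilobase of annotated exon, Ly6a, which encodes the stem cell antigen SCA-1, was the most abundant in wild type at 15751 ± 2879 normalised reads per kb (SD, n = 4), a level above that of 99.7% of 16748 expressed genes. Pdgfra followed at 2325 ± 229 and Cxcl12 at 2308 ± 120, and the wild type ranges of these neighbours overlapped. Pdgfrb stood at 1531 ± 252, above 95.7% of genes. Lepr stood at 629 ± 119 and Vcam1 at 400 ± 36.7 normalised reads per kb, with ranges that did not touch. On this scale the 3 receptors and Cxcl12 lay above Vcam1 and the other niche factors in wild type. The scale divides by the joined length of all annotated exons of a gene, 8.176 kb for Cxcl12 and 8.87 kb for Vcam1. That length can exceed the transcript made, so the order of genes may depend on it. Angpt1 stood at 229 ± 56.0 and Thy1 at 181 ± 10.3, with overlapping ranges. Kitl, at 96.1 ± 12.2 normalised reads per kb, was near the middle of all genes, with 50.4% of them lower. Il7, the lymphoid growth factor, was the least abundant of the 10 at 22.8 ± 4.49, above 25.9% of genes.

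Both knockouts kept Ly6a at the top of this order and Kitl and Il7 at its lower end. In the ANXA2 knockout the mean order was Ly6a, Pdgfra, Cxcl12, Pdgfrb, Lepr, Vcam1, Thy1, Angpt1, Kitl, Il7, and the ranges of Pdgfra, Cxcl12 and Pdgfrb overlapped. Thy1, at 239 normalised reads per kb, stood above Angpt1, at 152, the reverse of their wild type order. In the ANXA5 knockout Cxcl12, at 2602, stood above Pdgfra, at 2141, and Thy1, at 206, above Angpt1, at 167. The ranges of Cxcl12 and Pdgfra overlapped there, as did those of Thy1 and Angpt1, and those of Lepr, at 626, and Vcam1, at 524.

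**Figure D1:**
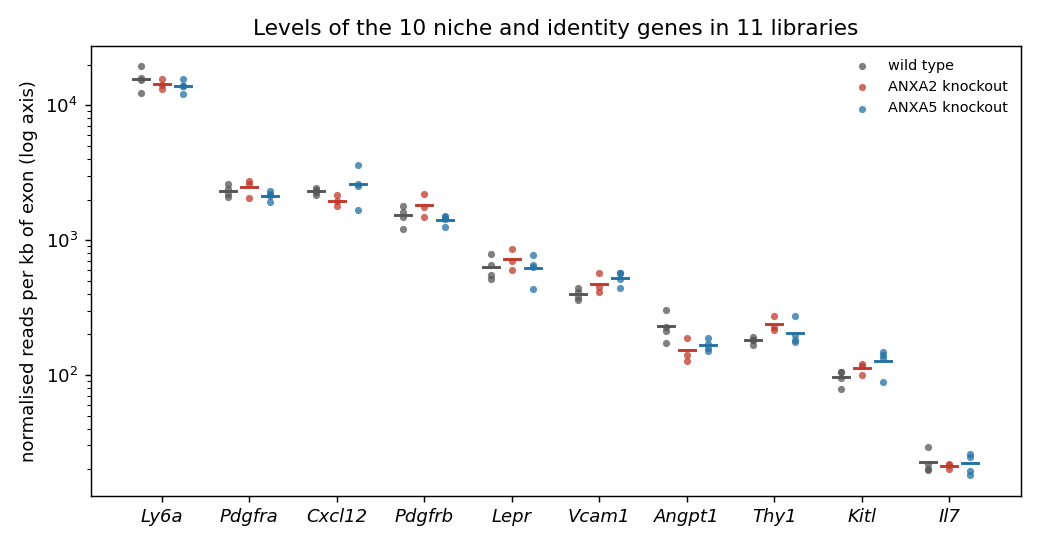
Level of each of the 10 genes in each of the 11 libraries, in normalised reads per kilobase of exon on a log axis, scaled jointly over all libraries. Points are libraries (4 wild type, 3 ANXA2 knockout, 4 ANXA5 knockout) and bars are group means. Ly6a is highest and Il7 lowest in all 3 groups. Some knockout points lie within the wild type range of the same gene and others outside it, as all do for Cxcl12.

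Neither knockout was called different from wild type for any of the 10 genes. By limma at an adjusted p under 0.05, 0 of the 10 genes passed in the ANXA2 knockout, where 0.112% of 16123 genes tested did, and 0 of 10 passed in the ANXA5 knockout, where 0.0308% of 16224 did. Calls were rare among all genes, and a count of 0 is near that background. At an unadjusted limma p under 0.05, 2 of 10 passed in the ANXA2 knockout (Thy1 higher and Angpt1 lower), against 8.69% of all genes tested, and 3 of 10 in the ANXA5 knockout (Vcam1 and Kitl higher, Angpt1 lower), against 11.9%. The edgeR and DESeq2 tests on whole reads called 0 of the 10 in both comparisons. Over all genes edgeR called 0.13% in the ANXA2 and 0.0308% in the ANXA5 knockout, and DESeq2 0.691% and 1.82%. The authors' deposited table gave 0 of the 10 an adjusted p under 0.05 in either comparison, against 0.593% of genes for the ANXA2 and 1.76% for the ANXA5 knockout. Libraries did not overlap between genotypes for 2 of the 10 in the ANXA2 knockout, Thy1 and Cxcl12, against 9.19% of genes, and for 0 of the 10 in the ANXA5 knockout, against 6.37%. The same 4 wild type libraries serve both comparisons, so the results of the knockouts are not independent of each other.

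The median log2 fold change of the 10 genes was 0.14 in the ANXA2 knockout, with 6 above 0, and -0.03 in the ANXA5 knockout, with 4 above 0. Over all genes tested the medians were 0.02 and 0.01, with 54.1% and 52.0% above 0. The 95% intervals of single genes reached 0.27 to 0.47 to either side of the estimate in the ANXA2 knockout and 0.24 to 0.44 in the ANXA5 knockout. Across the 10 genes the intervals ran from 0.482 to 1.58 times wild type in the ANXA2 knockout and from 0.581 to 1.70 times in the ANXA5 knockout. Changes larger than these lie outside the intervals of all 10 genes.

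**Figure D2:**
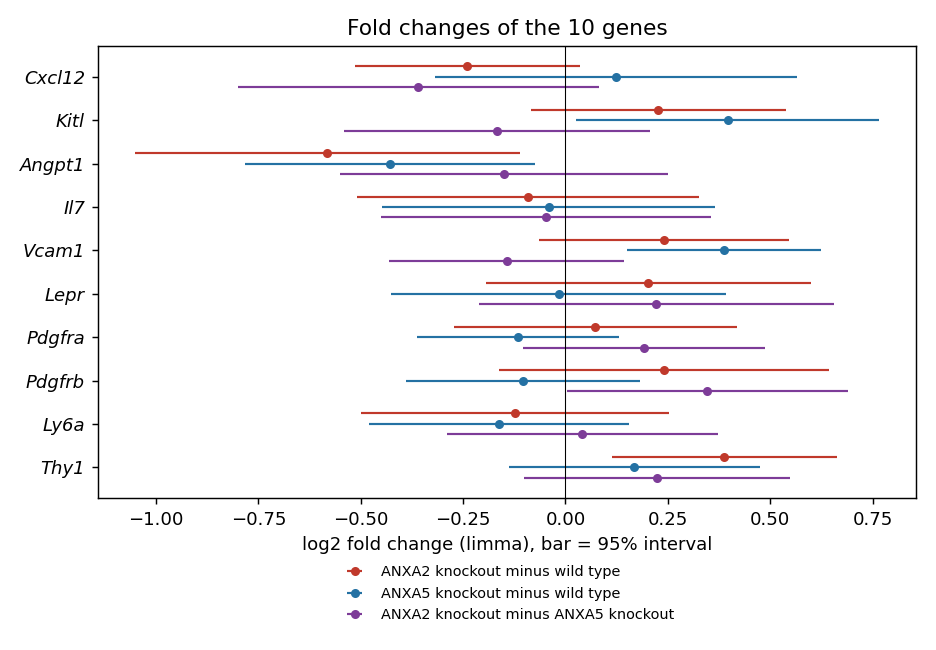
Log2 fold change of each of the 10 genes with its 95% limma interval, for ANXA2 knockout against wild type, ANXA5 knockout against wild type, and ANXA2 against ANXA5 knockout. Points are estimates and lines are intervals; Thy1 and Angpt1 exclude 0 in the ANXA2 knockout, Vcam1, Kitl and Angpt1 in the ANXA5 knockout and Pdgfrb between the knockouts, all before adjustment for the number of genes tested.

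Of the secreted factors, Cxcl12 and Kitl provide retention and survival signals to blood stem cells. Their promoters are shown because in the ANXA5 knockout the same libraries were lowest and highest for both genes. Vcam1 shared these extremes but had no promoter sequence available, and a common control of these genes was not tested. Both sequences come from RefSeq, build GRCm38.p6, on the plus strand, and cover the 250 bases before the RefSeq start site, at chr6:117168285-117168534 for Cxcl12 and chr10:100015571-100015820 for Kitl. The GENCODE annotation used for exon lengths starts Kitl earlier, at 100015630, so part of its printed sequence lies within the gene by that annotation. Capitals mark matches, on either strand, to the TATA motif TATAAA and the GC box motif GGGCGG.
Cxcl12: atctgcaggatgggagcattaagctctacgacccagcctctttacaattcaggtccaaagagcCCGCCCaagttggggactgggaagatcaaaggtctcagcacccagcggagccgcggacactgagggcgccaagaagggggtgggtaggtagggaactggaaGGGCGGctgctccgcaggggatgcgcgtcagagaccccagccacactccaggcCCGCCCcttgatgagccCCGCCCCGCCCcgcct
Kitl: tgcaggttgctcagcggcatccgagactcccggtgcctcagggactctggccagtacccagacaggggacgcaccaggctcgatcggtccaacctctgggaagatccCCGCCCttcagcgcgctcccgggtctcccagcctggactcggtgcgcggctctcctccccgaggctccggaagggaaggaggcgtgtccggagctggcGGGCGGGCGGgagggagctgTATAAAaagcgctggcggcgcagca
The Cxcl12 promoter held 5 matches to the GC box motif, some of which overlap, and 0 to the TATA motif. The Kitl promoter held 3 matches to the GC box motif and 1 to the TATA motif, 25 bases before the RefSeq start. The search ran over these bases and the 50 that follow. Of 32851 mouse promoters searched over the same 300 bases, 35.7% held the GC box motif, 13.6% the TATA motif and 2.04% both. The promoters thus share the GC box letters and differ in the TATA letters, and a match is a description of the sequence and no evidence that a factor binds there. Of the 10 genes, 4 had a promoter in the RefSeq table used, Lepr and Pdgfra being the other two.

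Cxcl12 was lower in all ANXA2 knockout libraries than in any wild type library. The ANXA2 knockout libraries, which carry the numbers 1, 3 and 4 in the table, held 13601, 16350.4 and 14884 normalised reads, and wild type libraries 1 to 4 held 16509, 17294, 18509.7 and 18116. The groups did not overlap, and 4.63% of genes tested were lower in this way. The means were 14945 ± 1376 (SD, n = 3) and 17607 ± 890 (SD, n = 4), a log2 difference of -0.24 with a 95% interval from -0.51 to 0.03, and limma's adjusted p was 0.587.

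The chemokine varied more between libraries of the ANXA5 knockout than in wild type. The 4 libraries held 13946, 30187, 21841 and 21225 normalised reads, against 18055, 18929, 20443 and 19865 in wild type, so that 3 lay above every wild type library and 1 below all of them. The coefficient of variation was 30.5% in the knockout and 5.44% in wild type. The log2 difference of 0.12 (95% interval -0.32 to 0.56, limma adjusted p = 0.815) turned to -0.05 without ANXA5 knockout library 2 and was 0.32 without library 1.

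Kitl, the stem cell factor gene, stood at 551, 663 and 641 normalised reads in the ANXA2 knockout and at 523, 580.3, 437 and 579 in wild type. The ranges overlapped, and the log2 difference was 0.23 (95% interval -0.08 to 0.54, limma adjusted p = 0.620), and 0.14 without wild type library 3. Libraries of the ANXA5 knockout held 539, 892, 815 and 856, against 572, 635, 482 and 635 in wild type. Libraries 2 to 4 lay above every wild type library and library 1 within the wild type range. The mean was 775 ± 161 against 581 ± 72.4 (SD, n = 4 each), a log2 difference of 0.40 with an interval from 0.03 to 0.77, whose adjusted p of 0.393 by limma did not pass. Without library 1 the difference was 0.56 (limma adjusted p = 0.316).

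Angpt1, whose product angiopoietin 1 binds the receptor TIE2 on endothelial and blood stem cells, had lower means in both knockouts. Levels of 680.05, 919 and 615 normalised reads in the ANXA2 knockout compared with wild type levels of 1485, 1096, 1035 and 833. Libraries 1 and 4 of the knockout lay below every wild type library, and library 3 lay among them. The log2 difference was -0.58, with a 95% interval from -1.05 to -0.11 and a limma adjusted p of 0.538.

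Angpt1 in the ANXA5 knockout stood at 902, 799, 850.05 and 1012, against 1625, 1199.5, 1143 and 913 in wild type. Libraries 1 to 3 lay below every wild type library and library 4 within their range. The difference of means, 891 ± 91.3 against 1220 ± 297 (SD, n = 4 each), came to -0.43 on the log2 scale, with an interval from -0.78 to -0.07 and a limma adjusted p of 0.353. Wild type library 1 was the highest of its group and enters both comparisons. Without it the differences were -0.43 for the ANXA2 and -0.28 for the ANXA5 knockout. The authors' deposited table gives Angpt1 an adjusted p of 0.345 in the ANXA2 and 0.202 in the ANXA5 knockout.

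Il7, which supports early lymphoid cells, was read at low depth, with 91 to 187 whole reads per library. Its libraries held 113, 106 and 115 normalised reads in the ANXA2 knockout, against 117, 155, 106 and 104 in wild type, and 112, 151, 105 and 144 in the ANXA5 knockout, against 127, 169.7, 117 and 114. The groups overlapped in both comparisons. The log2 differences were -0.09 (95% interval -0.51 to 0.33) and -0.04 (95% interval -0.45 to 0.36). Over all genes tested, the median interval reached 0.42 and 0.34 to either side of the estimate.

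Vcam1, an adhesion protein that binds the integrin VLA-4 on blood cells, had the smallest p of the 10 genes in the ANXA5 knockout. It stood at 4011, 5186, 5147 and 4703 normalised reads there, against 3275, 3444, 3789 and 4025 in wild type. Libraries 2 to 4 lay above every wild type library, and library 1 lay just under the highest of them. The means were 4762 ± 546 and 3633 ± 338 (SD, n = 4 each), a log2 difference of 0.39 with an interval from 0.15 to 0.62, and limma's adjusted p was 0.271. The authors' deposited table gives an adjusted p of 0.0641.

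Vcam1 in the ANXA2 knockout stood at 3414, 3690.2 and 4712 normalised reads, against 2994, 3147, 3431 and 3671 in wild type. The ranges overlapped, and the log2 difference was 0.24 (95% interval -0.06 to 0.55, limma adjusted p = 0.610). Without ANXA2 knockout library 4 it was 0.10. Macrophages of the marrow also make VCAM1. The 12 macrophage and monocyte markers held 0.454 to 0.533% of reads in the ANXA5 knockout, 0.273 to 0.584% in the ANXA2 knockout and 0.316 to 0.451% in wild type. The ANXA5 knockout and wild type did not overlap in percent of reads, but did in summed normalised reads (118999 to 149294 against 85222 to 129251). The part of these markers in the Vcam1 values was not tested.

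The leptin receptor gene Lepr overlapped between genotypes in both comparisons. Its ANXA2 knockout libraries held 5697, 4569.9 and 3979 normalised reads, and in wild type 5169, 3415, 4311 and 3645. The ANXA5 knockout libraries held 3159.7, 4746, 4539 and 5639, against 5653, 3738, 4761 and 3997. Library 1 of the ANXA5 knockout lay below every wild type library, and the rest of that group lay within the wild type range. The log2 differences were 0.20 (95% interval -0.19 to 0.60) and -0.02 (95% interval -0.43 to 0.39), with limma adjusted p-values of 0.724 and 0.975. The first was 0.06 without ANXA2 knockout library 1 and 0.12 without wild type library 2.

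Pdgfra and Pdgfrb, the receptors for platelet-derived growth factors that define mesenchymal cells, also overlapped between genotypes. Pdgfra stood at 24237, 25495 and 19168 normalised reads in the ANXA2 knockout, against 19558, 22512, 24335 and 20569 in wild type. The log2 difference was 0.07 (95% interval -0.27 to 0.42, limma adjusted p = 0.900). Pdgfra in the ANXA5 knockout stood at 23617, 19767, 22614 and 21962, against 21389.9, 24641, 26876 and 22554, a log2 difference of -0.12 (95% interval -0.36 to 0.13, limma adjusted p = 0.678). The interval of this gene in the ANXA5 knockout was among the narrower ones of the 10.

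Pdgfrb stood at 8923, 11323 and 7572 normalised reads in the ANXA2 knockout, against 6191, 7605, 9219 and 8288 in wild type. Library 3 of the knockout lay above all wild type libraries, and the log2 difference was 0.24 (95% interval -0.16 to 0.64, limma adjusted p = 0.678). Without that library it was 0.09, and without wild type library 1 it was 0.13. The ANXA5 knockout libraries stood at 8426, 6970.4, 8291 and 8022, against 6770.4, 8324, 10182 and 9088, a log2 difference of -0.10 (95% interval -0.39 to 0.18, limma adjusted p = 0.753). All 4 knockout libraries of this comparison lay within the wild type range.

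Ly6a, the marker SCA-1 used to sort mouse stromal progenitors, held 17565, 14766 and 15964 normalised reads in the ANXA2 knockout, against 21894, 17824, 13955 and 17185 in wild type. Libraries of the ANXA5 knockout held 19451, 17291, 17205 and 14967, against 23945, 19509.8, 15413 and 18844. Ly6a, the most abundant of the 10 genes per kb of exon though not in normalised reads, thus overlapped between genotypes in both comparisons. Without wild type library 1, the highest, its log2 differences were -0.02 and -0.06. With all libraries they were -0.12 (95% interval -0.50 to 0.25, limma adjusted p = 0.835) and -0.16 (95% interval -0.48 to 0.16, limma adjusted p = 0.654).

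Thy1, a membrane-anchored glycoprotein of stromal cells and T cells, had the smallest p of the 10 genes in the ANXA2 knockout. Its libraries held 597, 765 and 636 normalised reads, those of wild type 513, 506, 468 and 539, so that every knockout library lay above every wild type library, as was the case for 4.56% of genes tested. The means were 666 ± 88.0 (SD, n = 3) and 506 ± 29.3 (SD, n = 4). The log2 difference was 0.39, with an interval from 0.11 to 0.66 and a limma adjusted p of 0.518, and the authors' deposited table gives an adjusted p of 0.265. Without ANXA2 knockout library 3 the difference was 0.28. Thy1 lies on chromosome 9, as Anxa2 does, 25.4 Mb away in build GRCm38.

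Thy1 in the ANXA5 knockout stood at 606, 554, 833 and 540.5 normalised reads, against 561, 553, 517 and 591 in wild type. Library 3 stood well above the rest and library 1 just above the wild type range. The log2 difference was 0.17 (95% interval -0.14 to 0.47, limma adjusted p = 0.631), and without library 3 it was 0.03. Il7 and Vcam1 lie on chromosome 3 with Anxa5, at 28.8 and 79.6 Mb from it in the same build.

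**Figure D3:**
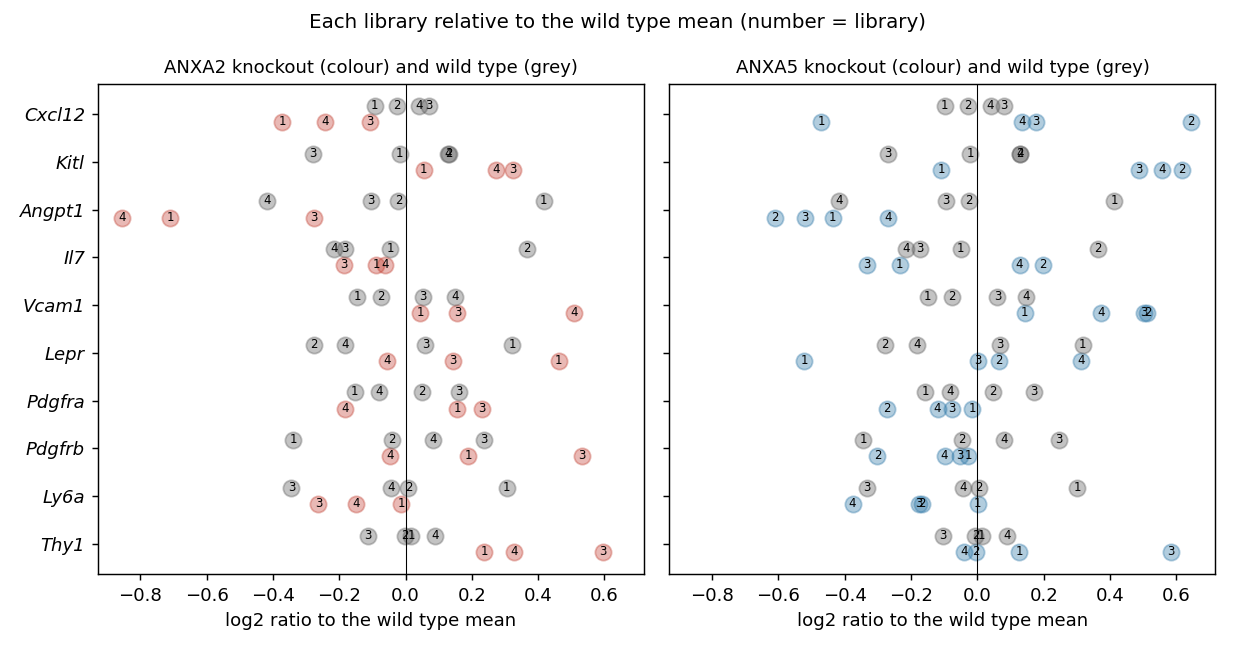
Log2 ratio of each library to the wild type mean for the 10 genes, with the ANXA2 table on the left and the ANXA5 table on the right. Each digit is a library of that number, and wild type libraries are drawn beside the knockout libraries; ANXA5 knockout library 1 is the lowest of its group for Cxcl12, Kitl, Vcam1 and Lepr, while library 2 is the highest for Cxcl12, Kitl and Vcam1.

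Some genes shared their lowest and highest libraries within the ANXA5 knockout. Library 1 was the lowest of the 4 for Cxcl12, Kitl, Vcam1 and Lepr and the highest for Pdgfra, Pdgfrb and Ly6a. Library 2 was the highest for Cxcl12, Kitl, Il7 and Vcam1 and the lowest for Angpt1, Pdgfra and Pdgfrb. Cxcl12, Kitl and Vcam1 thus shared both extremes, while Angpt1 was highest in library 4 and Il7 lowest in library 3, a description of 4 libraries with no test. In the ANXA2 knockout library 3 was the highest for 6 genes (Cxcl12, Kitl, Angpt1, Pdgfra, Pdgfrb and Thy1), and library 4 was the lowest for Angpt1, Lepr, Pdgfra and Pdgfrb. Among wild type libraries, library 1 was the highest for Angpt1, Lepr and Ly6a and the lowest for Cxcl12, Vcam1, Pdgfra and Pdgfrb.

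Set directly against each other after joint scaling of all 11 libraries, the knockouts were not called different for any of the 10 genes by limma, where 0.298% of 16791 genes tested passed. At an unadjusted p under 0.05, 1 of 10 passed, against 13.6% of all genes, and edgeR and DESeq2 called 0 of 10, against 0.262% and 2.46% of all genes. The gene with an unadjusted p under 0.05 was Pdgfrb, at 9571, 12148 and 8123 jointly scaled reads in the ANXA2 knockout and 8220, 6813, 8097 and 7812 in the ANXA5 knockout. The groups overlapped, as they did for all 10 genes, while 12.6% of genes tested had groups that did not. The log2 difference, ANXA2 minus ANXA5 knockout, was 0.35 (limma adjusted p = 0.367), and it was 0.19 without ANXA2 knockout library 3.

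Cxcl12 averaged 16033 ± 1477 jointly scaled reads (SD, n = 3) in the ANXA2 knockout and 21277 ± 6505 (SD, n = 4) in the ANXA5 knockout, and the log2 difference was -0.36 with a 95% interval from -0.80 to 0.08. It was -0.18 without ANXA5 knockout library 2 and -0.56 without library 1. Vcam1 differed by -0.14 (95% interval -0.43 to 0.14) and Kitl by -0.17 (95% interval -0.54 to 0.21). For Angpt1 the difference was -0.15, with an interval from -0.55 to 0.25. Leaving out 1 library moved these 3 differences to between -0.28 and -0.05 for Vcam1, -0.33 and -0.09 for Kitl, and -0.32 and -0.03 for Angpt1. These intervals include 0 and also differences of moderate size, so the knockouts are not shown to act alike on the niche factors.

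Vcam1 belongs with other adhesion and Notch proteins through which stroma holds blood cells. Of a separate list of 13 such genes tested, which does not include Vcam1, limma called 2 between the knockouts, where it called 0.298% of all genes. Both were chosen for description here after their values were seen. Icam1, the ligand of leukocyte integrin LFA-1, stood at 18388, 13532 and 16609 jointly scaled reads in the ANXA2 knockout, 8305, 8218 and 5871 in ANXA5 knockout libraries 1 to 3 and 6637 in library 4. All 3 ANXA2 knockout libraries lay above all 4 ANXA5 knockout libraries. The log2 difference was 1.16 (95% interval 0.79 to 1.53, limma adjusted p = 0.0151). Without ANXA2 knockout library 1, or without ANXA5 knockout library 3 or 4, it was 1.06, 1.06 and 1.12, with limma adjusted p-values of 0.0848, 0.0512 and 0.0715. Against wild type, Icam1 differed by 0.73 in the ANXA2 knockout (limma adjusted p = 0.393, DESeq2 adjusted p = 0.0210) and by -0.43 in the ANXA5 knockout (limma adjusted p = 0.342).

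Vcan, which encodes the matrix proteoglycan versican, differed the other way. It stood at 3586, 3897 and 3634 jointly scaled reads in the ANXA2 knockout and at 6519, 5343, 5295 and 5398 in the ANXA5 knockout, with no overlap. The log2 difference was -0.60 (95% interval -0.81 to -0.39, limma adjusted p = 0.0299). Leaving out any 1 of the 7 knockout libraries gave limma adjusted p-values of 0.0569 to 0.109, with log2 differences of -0.64 to -0.53. Against wild type the differences were -0.56 in the ANXA2 knockout (limma adjusted p = 0.118, DESeq2 adjusted p = 5.64e-06) and 0.04 in the ANXA5 knockout (limma adjusted p = 0.878). The ANXA2 knockout thus held more Icam1 and less Vcan than the ANXA5 knockout, while Vcam1 of the same list was not called.

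Among the genes around the 10, limma called 0 genes of any list in either comparison with wild type, and edgeR called 0 as well. At an unadjusted p under 0.05, the level of the list counts that follow, 8.69% of all genes passed in the ANXA2 and 11.9% in the ANXA5 knockout. Of 28 other niche cytokines and growth factors tested in the ANXA2 knockout, 4 stood higher and 0 lower at an unadjusted p under 0.05, with a median log2 change of 0.13. Of 27 in the ANXA5 knockout, 1 stood higher and 5 lower, with a median of -0.22. Mdk, the growth factor midkine, stood at 264 ± 13.5 against 208 ± 10.6 normalised reads in the ANXA2 knockout and at 334 ± 77.7 against 228 ± 11.3 in the ANXA5 knockout. Bmp4, a bone morphogenetic protein, stood at 1001 ± 43.6 against 1412 ± 288 in the ANXA5 knockout (limma adjusted p = 0.279).

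The list of ligands, receptors and processing enzymes that pair with the 10 genes had 17 tested members. In the ANXA2 knockout 2 stood higher and 0 lower at an unadjusted p under 0.05, and Pdgfa, a ligand of PDGFRA, averaged 574 ± 121 against 378 ± 40.7 normalised reads (a log2 difference of 0.59, limma adjusted p = 0.476). For the ANXA5 knockout 7 stood higher and 3 lower. Pdgfb, the main ligand of PDGFRB, was at 102 ± 24.9 against 47.7 ± 15.2 (log2 1.10, limma adjusted p = 0.230, DESeq2 adjusted p = 0.0115). Tie1, the partner of the angiopoietin receptor TIE2, was at 694 ± 222 against 232 ± 123 (log2 1.75, limma adjusted p = 0.230, DESeq2 adjusted p = 0.00770). Tek, which encodes TIE2 itself, was at 1734 ± 143 against 2481 ± 666 (log2 -0.48, limma adjusted p = 0.342). DESeq2 called 3 genes of this list in the ANXA5 knockout, Tie1 and Pdgfb higher and Dpp4, which encodes a protease that cuts CXCL12, lower, and 0 in the ANXA2 knockout. These 3 genes were not called by limma or edgeR.

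Among 17 niche transcription factors, 4 stood higher and 2 lower in the ANXA2 knockout at an unadjusted p under 0.05, and 1 higher and 4 lower in the ANXA5 knockout. Snai2, a repressor of epithelial genes, stood at 455 ± 64.0 against 728 ± 157 normalised reads in the ANXA2 knockout (log2 -0.66, limma adjusted p = 0.476) and at 499.9 ± 94.4 against 799 ± 170 in the ANXA5 knockout (log2 -0.67, limma adjusted p = 0.231, DESeq2 adjusted p = 0.0307). Klf4 stood at 16369 ± 2554 against 8268 ± 4142 in the ANXA2 knockout (log2 1.10, limma adjusted p = 0.518). With Xist as a covariate, limma gave adjusted p-values of 0.0309 for Snai2 and 0.0269 for Klf4 in the ANXA2 knockout. That run called many more genes among all genes than the main fit did, with the counts given in the closing section.

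Of 20 stromal surface markers, 2 stood higher in the ANXA2 and 3 in the ANXA5 knockout at an unadjusted p under 0.05, and 0 lower in both, shares close to those of all genes (8.69% and 11.9%). Mcam, the adhesion protein CD146, was at 181 ± 12.2 against 109.7 ± 22.1 normalised reads in the ANXA5 knockout (log2 0.73, limma adjusted p = 0.227, DESeq2 adjusted p = 0.00836). Fat-lineage genes of niche stroma, a list of 11 tested genes that includes Lepr, had a median log2 change of 0.20 in the ANXA2 knockout. That median is the value of Lepr itself. In the ANXA5 knockout the median was 0.40, and 4 of the 11 stood higher at an unadjusted p under 0.05. Fabp4, a fatty acid carrier, was at 1077 ± 263 against 406 ± 238 there (log2 1.58, limma adjusted p = 0.230, DESeq2 adjusted p = 0.0138). DESeq2 called 3 genes of this list higher in the ANXA5 knockout, Fabp4, Hp and Adipoq, and 0 in the ANXA2 knockout. Bone-lineage genes had medians of 0.31 and 0.55 over 12 genes, with 1 higher and 0 lower in the ANXA2 knockout and 6 higher and 2 lower in the ANXA5 knockout at the same level. Dmp1, a matrix protein of osteocytes, was at 143 ± 76.0 against 33.6 ± 6.52 in the ANXA5 knockout (log2 1.90, limma adjusted p = 0.217, DESeq2 adjusted p = 8.72e-05), and limma's adjusted p was 0.0359 without ANXA5 knockout library 2.

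Markers of other marrow cells stood higher in the ANXA5 knockout for several lists, at the unadjusted level. Of 12 endothelial markers, 8 stood higher and 1 lower in the ANXA5 knockout at an unadjusted p under 0.05, with a median of 1.15, and 0 did in either direction in the ANXA2 knockout. The endothelial list held 0.0203 to 0.0326% of reads in the ANXA5 knockout, 0.0144 to 0.0214% in the ANXA2 knockout and 0.0162 to 0.0222% in wild type. Of 12 macrophage and monocyte markers, 9 stood higher in the ANXA5 and 1 in the ANXA2 knockout, where 11.9% and 8.69% of all genes passed at this level in either direction. Pecam1, which encodes the endothelial protein CD31, was at 1095 ± 237 against 594 ± 164 normalised reads in the ANXA5 knockout (log2 0.90, limma adjusted p = 0.230). The 1 endothelial marker lower at that level was Tek, the most abundant of the list, whose values are given above with Tie1. DESeq2 called 4 endothelial markers higher in the ANXA5 knockout and 0 markers of the other 4 cell types.

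At an unadjusted limma p under 0.05, 3 of 10 neutrophil markers stood higher in the ANXA5 knockout and 0 in the ANXA2 knockout. The log2 difference from wild type was above 0 for all 10 in both knockouts. Their share of reads ran from 1.70 to 2.24% in the ANXA5 knockout, 0.925 to 2.48% in the ANXA2 knockout and 1.17 to 2.001% in wild type. The 12 erythroid and megakaryocyte markers held 0.142 to 0.273%, 0.0518 to 0.114% and 0.0658 to 0.231% in the same order. At the same unadjusted level, 2 of them stood higher in the ANXA5 and 0 in the ANXA2 knockout. The 12 markers of B, plasma and T cells, which include cells that respond to Il7, held 0.0263 to 0.0433%, 0.0235 to 0.0345% and 0.0279 to 0.0403%. None of these markers was at 0 in any library. The part of these cells in the values of Kitl, Vcam1 and Angpt1, which endothelial or blood cells can also express, was not tested.

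**Figure D4:**
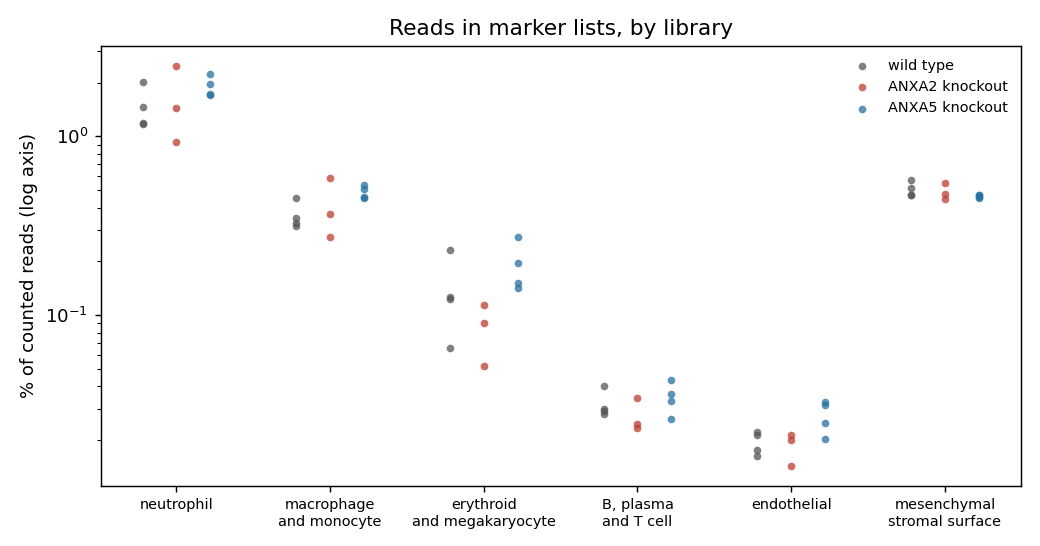
Percent of counted reads in 6 lists of marker genes in each library, on a log axis, for wild type, ANXA2 knockout and ANXA5 knockout. Points are libraries. In percent of reads the 4 ANXA5 knockout libraries lie above all wild type libraries for macrophage and monocyte markers, which overlap in summed normalised reads. Both knockouts overlap wild type for neutrophil, endothelial, erythroid and lymphoid markers.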

How the data were processed

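RNA-seq libraries of primary bone marrow mesenchymal stromal cells were analysed from 2 deposited tables, each with 1 knockout and the same 4 wild type libraries. The signal columns the authors deposited are read counts per gene divided by a DESeq2 size factor. Undoing that division returned whole numbers for 100% of values, within 0.001. Tools named in the submitters' processing notes are Trim Galore, STAR, HTSeq and DESeq2, with build GRCm39 and with versions not given in the sources used here. The log2 fold changes and p-values the authors deposited are from DESeq2, per the file headers. The score column, a Wald statistic per the file headers, was not used. The number of sample columns left out was 0.

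Each knockout was compared with wild type by limma-trend on log2(value + 1). A gene was tested if it reached 10 in a number of libraries equal to the size of the smaller group. A pseudocount of this kind understates changes of low genes. Two-sided p-values were adjusted by Benjamini-Hochberg over all genes tested, with a threshold of 0.05. The knockouts were compared in a limma fit of all 3 groups, after the recovered reads were scaled by DESeq2 median-ratio factors over 11 libraries. Columns of the ANXA2 knockout carry numbers other than the sample titles and were matched to the group only. R 4.3.3, limma 3.58.1, edgeR 4.0.16 and DESeq2 1.42.0 were used. The fits were tested on simulated data.

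The 10 genes and the other lists were chosen with earlier results of these data known. All 10 are named in every comparison. From each other list and comparison with wild type, called genes were eligible for naming, or the 2 smallest p where none was called, and for other cell types also the most abundant gene. Icam1 and Vcan of the comparison between knockouts, Ptprc, Dpp4, Adipoq, and those of the eligible genes that are described, were chosen after their values were seen. Exon lengths and positions were read from the GENCODE vM21 annotation of GRCm38, matched by identifier for 99.6% of shared genes. This is not the submitters' build.

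Alternatives were TMM scaling, edgeR, DESeq2, pseudocounts of 0.5 and 5, no filter, Xist as a covariate, a replicate block, and leaving out each library. Library sizes limit the precision less than the spread between libraries, since replicates differed by more than sampling noise (chi-square per degree of freedom 29.4 or more).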

Additional observations from a re-analysis of the deposited data

Results flagged for a closer look

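Of the genes in the lists, limma called 2 between the knockouts, Icam1 (log2 1.16, limma adjusted p = 0.0151) and Vcan (log2 -0.60, limma adjusted p = 0.0299). Both were chosen for this comparison after these values were seen. A library set apart from the other 3 of its group was found in 8 of 115 groups of 4 tested by Dixon's criterion, which chance meets in about 1 of 20, and 0 of the 8 involved the 10 niche and stromal genes. Wild type library 4 was apart for Elane, a neutrophil protease gene, at 18845 normalised reads in the ANXA2 and 20665 in the ANXA5 table, with the same reads behind both, and for Pf4, a platelet chemokine gene, at 536. Wild type library 1 was apart for Pdgfa, at 317, and wild type library 2 for Wif1, a Wnt inhibitor gene, at 430.2. In the ANXA5 knockout, library 2 was apart for Cdh2, at 205, and library 4 for Csf1r, at 3976, and Esam, at 762.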

How the results depend on the processing

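In the comparisons of either knockout with wild type and of both knockouts, 0 of the 10 genes were called under every alternative run. The number of genes called among all genes was less stable. In the ANXA2 knockout it was 18, and 107 with DESeq2, 284 with Xist as a covariate, and 8 to 16 with 1 library left out, with 8 when ANXA2 knockout library 3, 10 when wild type library 4 and 11 when wild type library 2 was left out. In the ANXA5 knockout it was 5, and 278 with DESeq2, and 4 to 32 with 1 library left out, with 8 without ANXA5 knockout library 3 and 32 without wild type library 4. Between the knockouts it was 50, and 397 with DESeq2, and 19 to 54 with 1 library left out, with 19 and 25 without ANXA2 knockout libraries 1 and 3, 21 to 27 without any 1 ANXA5 knockout library, and 32 and 33 without wild type libraries 2 and 4. The cause was not tested. No alternative run that kept all libraries turned the direction of any of the 10 genes.

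Leaving out 1 library turned the log2 difference of Il7 (-0.16 to 0.036) and Pdgfra (-0.0075 to 0.20) in the ANXA2 knockout, of Cxcl12 (-0.051 to 0.32), Il7 (-0.13 to 0.085) and Lepr (-0.13 to 0.15) in the ANXA5 knockout, and of Il7 (-0.14 to 0.039) and Ly6a (-0.025 to 0.10) between the knockouts. Among marker genes it turned Elane (-0.032 to 0.78), Lyz2 (-0.029 to 0.52), Ngp (-0.11 to 0.34) and Tek (-0.25 to 0.0098) in the ANXA2 and Cd79a (-0.068 to 0.15) in the ANXA5 knockout. None of these differences was called. Among list genes named for the comparisons with wild type, none of which limma called, an alternative that kept all libraries called a gene 5 times in the ANXA2 and 10 times in the ANXA5 knockout, and leaving out 1 library did so 2 times in the ANXA5 knockout, for Dmp1 and for Elane.

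The ANXA5 knockout and wild type libraries share the replicate numbers 1 to 4. Deviations of same-numbered libraries from their group means correlated at 0.05, -0.07, -0.25 and 0.07, and no library matched best its own number. With 4 libraries per group this check cannot tell whether same-numbered libraries were prepared together, which the labels do not give. With the replicate number as a block, 8 genes were called in place of 5, and 0 of the 10. For the ANXA2 knockout, against wild type or against the ANXA5 knockout, no paired analysis was run. The column numbers of the ANXA2 knockout are not those of its titles. Where 1 arm of 3 libraries lost 1, the remaining libraries set the spread.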
